A study of Mus musculus with 12 samples.

Results

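Transcripts of 10 genes that handle fatty acids were followed in liver macrophage preparations of mice: Lpl, Cd36, Slc27a1, Slc27a6, Olr1, Fabp4, Fabp5, Fabp7, Pparg and Plin2. They are 10 of the 25700 genes in the count table, matched by Ensembl identifier and mouse symbol, and all 10 were among the 13844 genes tested. The genes were chosen on results of these same libraries, so their levels, folds and calls are given as a description and without p-values. Non-parenchymal liver cells were enriched on magnetic beads for F4/80, a surface protein of mouse macrophages, and their RNA was sequenced in bulk. Male mice of 8 to 10 weeks were either homozygous for sph, an allele that makes red cells fragile, or littermates that the labels call wild type (WT). The 4 groups were sph/sph mice injected intraperitoneally 30 h earlier with an agonistic CD40 antibody at 20 mg/kg (anti-CD40), sph/sph mice given saline, WT mice given anti-CD40 and WT mice given saline. Each group held 3 libraries, named A, B and C here, and the series' title asks how the uptake of red cells programs liver macrophages.

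Fatty acids reach a macrophage in several ways, and the genes cover the steps in turn. Lipoprotein lipase (Lpl) frees fatty acids from circulating triglycerides at the cell surface, and CD36 and the fatty acid transport proteins of the Slc27a family take them up. OLR1, also called LOX-1, is a lectin-like receptor for oxidised low-density lipoprotein. Inside the cell the fatty acid binding proteins (Fabp4, Fabp5 and Fabp7) carry them, PPAR-gamma (Pparg) is a nuclear receptor that fatty acids activate and that pairs with RXR to drive such genes, and perilipin 2 (Plin2) coats the lipid droplets in which surplus fatty acids are stored as triglyceride. In the resting liver, Kupffer cells are the resident macrophages, and sinusoidal endothelial cells lie beside them.

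Library totals ran from 14991250 to 18984067 counts. The columns carry no replicate numbers, so the letters follow column order and are not used to pair libraries. Within each treatment, library A of sph/sph and library A of WT share numbers in their column names, more under saline than under anti-CD40. The meaning of these numbers is not given in the sources used here. The columns call the control genotype heterozygous where the labels say wild type. Library A of each group, 4 libraries in all, had 0 counts of the Y-linked genes Ddx3y, Uty, Kdm5d and Eif2s3y, against the label of male mice. Erythroid markers summed to 490 to 1178 CPM (counts per library brought to 1 common total) in sph/sph anti-CD40, 451 to 914 CPM in sph/sph saline, 3.15 to 9.51 CPM in WT anti-CD40 and 7.87 to 21.0 CPM in WT saline. Adgre1, which encodes F4/80, stood at 1101 to 2237 CPM in sph/sph anti-CD40, 1430 to 1907 CPM in sph/sph saline, 39.8 to 173 CPM in WT anti-CD40 and 1579 to 1942 CPM in WT saline. The summed level of 10 Kupffer cell markers lay at 12144 to 17482 CPM, 24003 to 35176 CPM, 365 to 764 CPM and 29560 to 34009 CPM in the same order of groups. By Adgre1 and by these markers WT anti-CD40 stood lowest, and how far the label of F4/80-enriched macrophages holds for it was not tested. In WT anti-CD40 8 general macrophage markers summed to 6604 to 12379 CPM, against 14687 to 16839 CPM in WT saline. In sph/sph they summed to 8130 to 14386 CPM under anti-CD40, overlapping WT anti-CD40, and to 12626 to 16492 CPM under saline. Of these 8, 6 were lower in WT anti-CD40 than in WT saline at an edgeR adjusted p under 0.05, and 0 were higher. Their median log2 fold was -2.23, and 19.7% of all tested genes were lower by the same threshold. Library C of sph/sph anti-CD40 stood apart by its B cell markers, which summed to 3310 CPM, against 320.1 and 121 CPM in A and B. In bulk libraries fewer cells of a type and less RNA per cell cannot be told apart.

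Most of the set stood at another level after anti-CD40 in WT mice, while in sph/sph mice no gene of it was called. A gene counts as called here at an edgeR adjusted p under 0.05 over all genes tested. In sph/sph none of the 10 was called between anti-CD40 and saline, beside 0.780% of all tested genes. DESeq2 called 3 of them there (Olr1 higher, Fabp7 and Pparg lower) and 5 had an unadjusted edgeR p under 0.05. Without library C of sph/sph anti-CD40 edgeR called Olr1 higher and Fabp7, Cd36, Slc27a1 and Pparg lower, and without library A of WT anti-CD40 Fabp7 and Pparg lower. In WT, Olr1, Fabp4 and Fabp5 were called higher under anti-CD40 than under saline and Slc27a6, Fabp7, Cd36, Slc27a1 and Lpl lower. These 3 higher and 5 lower calls among 10 genes stand beside 39.2% of all genes.

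Lpl and Pparg were called higher in sph/sph than in WT under both treatments. Under anti-CD40 so were Fabp7 and Cd36, and Olr1 was called lower in sph/sph, 5 of 10 beside 17.7% of all genes. Under saline, Fabp5 was the third gene called higher and Slc27a6 the gene called lower, 4 of 10 beside 2.04% of all genes. With the 4 libraries without Y-linked counts left out, 0 of the 10 were called between genotypes under saline. The difference between the responses of the genotypes, the interaction, was called for Fabp7, Slc27a6, Fabp5 and Olr1, 4 of 10 beside 4.30% of all genes. Since the genes were picked with these comparisons known, nothing is read from the counts against their backgrounds.

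**Figure D1:**
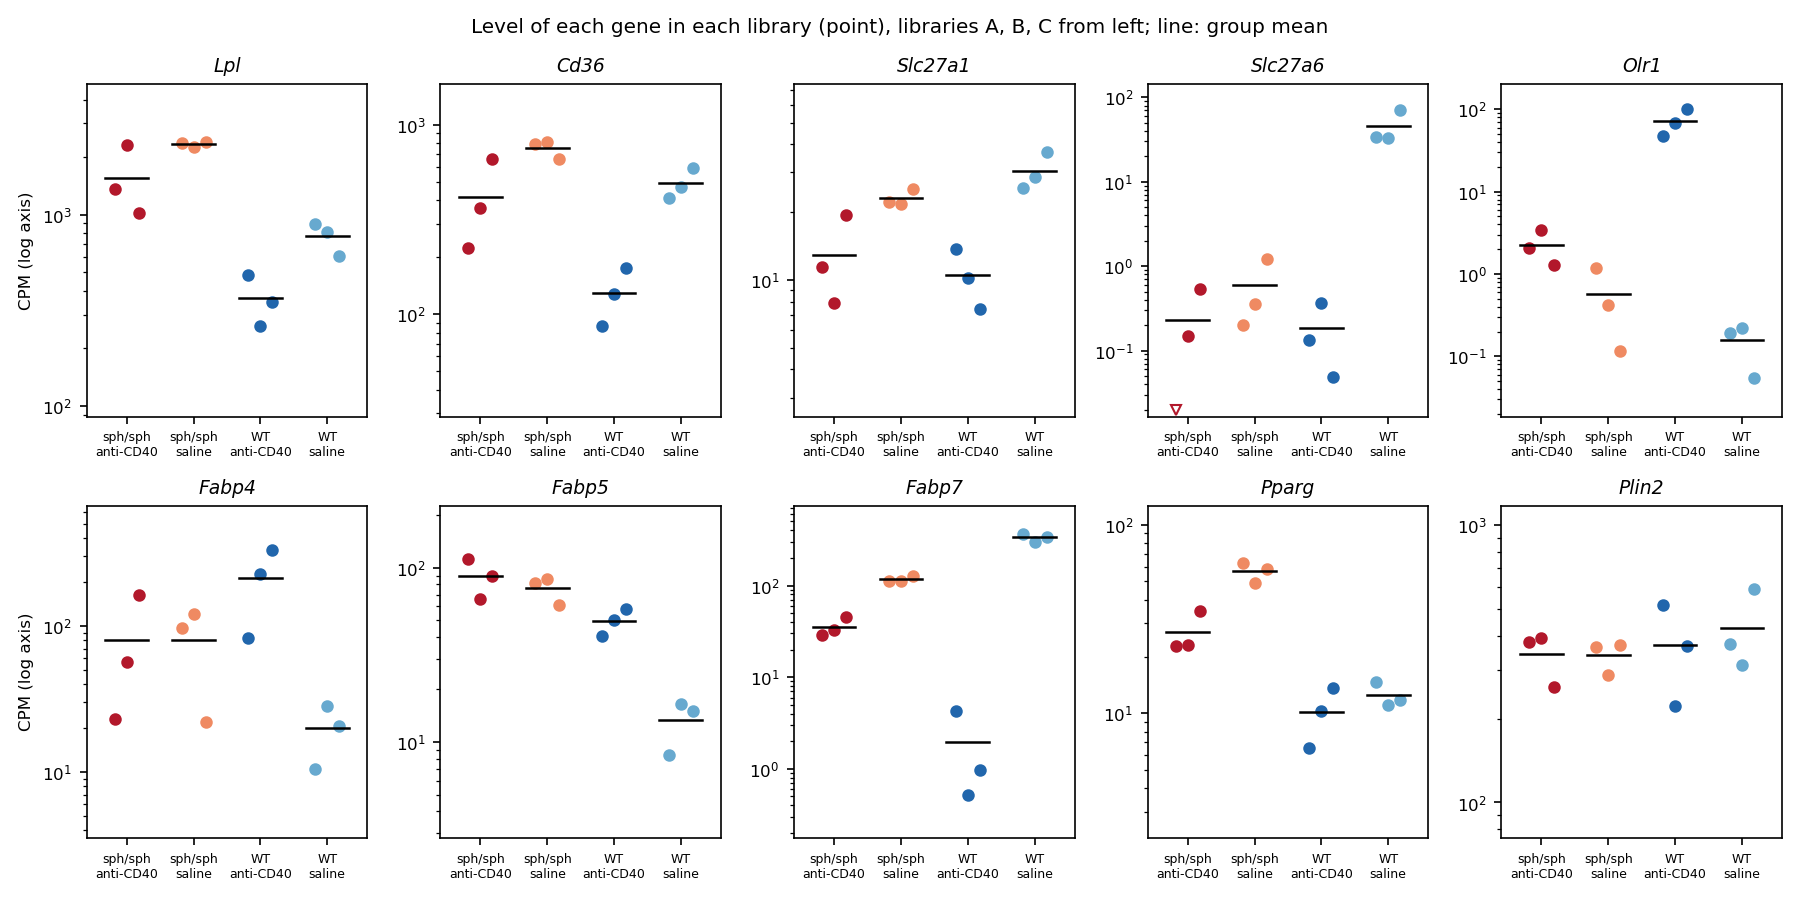
Levels of the 10 genes in CPM (log axis, own range per gene), 1 point per library with A, B and C from left to right in each group and a line at the group mean. The open triangle marks a library with 0 counts. Olr1 is high in WT anti-CD40, Slc27a6 in WT saline, and Fabp7 falls into 4 groups that do not overlap.

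Per summed exon length, the leading gene of the set differed between groups. Levels were divided by the summed length of all annotated exons of each gene for this comparison and are given as CPM per kb. This is not the length of the transcripts present: for Fabp4 it was 4489 bases, its whole gene span. For Lpl it was 10478 bases, the longest of the set. Too long a length lowers a gene's value, so the order of genes within a group depends on these lengths. Whether Plin2 would still stand above Fabp4 and Lpl in WT anti-CD40 by transcript length was not tested. In sph/sph anti-CD40 the order was Lpl (149 ± 64.2 CPM per kb, SD, n = 3), Cd36 (115 ± 61.8) and Plin2 (97.9 ± 20.6). In sph/sph saline Lpl (223.5 ± 6.73) and Cd36 (210.3 ± 23.6) came before Plin2 (97.2 ± 13.1) and Fabp7 (93.3 ± 6.25). In WT anti-CD40 the highest was Plin2 (105 ± 41.6), followed by Fabp4 (47.7 ± 27.8) and Cd36 (36.2 ± 12.5). Lpl stood at 34.9 ± 10.5 and Fabp7 at 1.55 ± 1.66 CPM per kb there. In WT saline the highest was Fabp7 (269.8 ± 26.8), followed by Cd36 (136.5 ± 25.3) and Plin2 (121 ± 41.0). Without division by length, Lpl averaged 365 CPM and Plin2 369 CPM in WT anti-CD40. In WT saline Lpl averaged 772.5 CPM and Fabp7 337 CPM by that measure. Groups of neighbouring rank often lay within their SDs, as Fabp4 and Cd36 did in WT anti-CD40.

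Lpl, the secreted lipase (chromosome 8, 68880491 to 68907448, plus strand), was a strongly sequenced gene in every library and higher in sph/sph under either treatment. It stood at 1356, 2314 and 1016 CPM in the sph/sph anti-CD40 libraries A, B and C, and in sph/sph saline at 2367, 2262 and 2396 CPM. In WT anti-CD40 it stood at 482, 263 and 351 CPM and in WT saline at 897, 816 and 605 CPM. Every sph/sph library lay above every WT library, and the sph/sph saline libraries varied least, with a coefficient of variation of 3.01%. The means were 4.28-fold apart under anti-CD40 (log2 fold 2.10 ± 0.33, SE) and 3.03-fold apart under saline (1.60 ± 0.33). Anti-CD40 went with a lower mean in both genotypes, by a log2 fold of -0.58 ± 0.32 in sph/sph, where libraries overlapped, and -1.08 ± 0.32 in WT, where they did not. Its call between genotypes under anti-CD40 held in each of the 12 fits without 1 library and in the 8 other alternatives. That under saline was lost without any 1 of the 6 saline libraries, library A of sph/sph anti-CD40 or library C of WT anti-CD40, and that for WT anti-CD40 without WT saline A or B or WT anti-CD40 B or C. Without those libraries the log2 folds lay between 1.45 and 1.72 under saline and between -1.09 and -0.92 for the WT response; without the 4 libraries lacking Y-linked counts both calls were lost, at 1.71 and -1.22. Lpl did not follow the Kupffer cell markers: it had 63.1 to 132 CPM per 1000 CPM of their sum in sph/sph anti-CD40, 68.1 to 94.2 in sph/sph saline, 557 to 720 in WT anti-CD40 and 17.8 to 27.6 in WT saline.

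Cd36, the fatty acid translocase (chromosome 5, 17781690 to 17888801, minus strand), fell into a gradation across groups. Its libraries A, B and C held 223, 363 and 657 CPM in sph/sph anti-CD40 and 791, 815 and 658 CPM in sph/sph saline. They held 86.4, 128 and 176 CPM in WT anti-CD40 and 412, 469 and 590 CPM in WT saline. The WT anti-CD40 libraries lay below all others, and sph/sph saline lay above all, although the highest library of sph/sph anti-CD40 (657.2 CPM) nearly reached its lowest (658.3 CPM). Anti-CD40 against saline gave a log2 fold of -0.87 ± 0.37 in sph/sph and -1.91 ± 0.38 in WT, and the difference of the responses, 1.05 ± 0.52, was not called. Between genotypes the log2 fold was 1.67 ± 0.38 under anti-CD40, called except without WT anti-CD40 B (1.65) and in a fit of the 2 groups alone (1.62), and 0.62 ± 0.37 under saline. Library C of sph/sph anti-CD40, the one rich in B cell markers and highest in that group for endothelial markers, also held the most Cd36; without it the sph/sph response was -1.37 and was called.

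Slc27a1 and Slc27a6, members of the fatty acid transport protein family that joins uptake to activation with coenzyme A, behaved unlike each other. Slc27a1 (chromosome 8, 71568882 to 71587302, plus strand) ranged less widely, at 11.4, 7.91 and 19.4 CPM in sph/sph anti-CD40, 22.2, 21.7 and 25.4 CPM in sph/sph saline, 13.8, 10.2 and 7.39 CPM in WT anti-CD40 and 25.7, 28.6 and 36.9 CPM in WT saline. Anti-CD40 libraries lay below saline libraries in either genotype, with a log2 fold of -0.84 ± 0.32 in sph/sph, called only without sph/sph anti-CD40 C (-1.27) among the fits run, and -1.54 ± 0.32 in WT.

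Slc27a6 (chromosome 18, 58556257 to 58612773, plus strand) was high in WT saline alone. Its counts in libraries A, B and C were 0, 2 and 10 in sph/sph anti-CD40, 3, 6 and 21 in sph/sph saline and 2, 7 and 1 in WT anti-CD40. WT saline had 534, 596 and 1280 counts (34.3, 32.7 and 70.9 CPM). Sph/sph saline thus lay 77.6-fold below WT saline (log2 fold -6.24 ± 0.90) and WT anti-CD40 251-fold below it (-7.91 ± 1.00). With 10 to 30 counts per group in the other 3 groups, those groups overlapped, and the log2 fold between genotypes under anti-CD40 was 0.41 ± 1.08. WT saline was also the only group in which all 3 libraries passed the low-count filter of 0.609 CPM, so a gene kept in this way had to differ. In its interaction of 6.65 ± 1.41, 1 group stood high and 3 near 0, and without sph/sph anti-CD40 C, the library with 10 counts, it was 4.98 and not called. It was also not called without WT saline A or C, sph/sph saline A or B, sph/sph anti-CD40 B or WT anti-CD40 C, at 6.18 to 6.88, by limma-voom, at 6.40, or without the 4 libraries lacking Y-linked counts, at 6.81.

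Olr1, the receptor for oxidised lipoprotein (chromosome 6, 129485244 to 129507165, minus strand), was the mirror image, a gene of WT anti-CD40. In sph/sph, libraries A, B and C had 30, 46 and 24 counts (2.07, 3.40 and 1.30 CPM) under anti-CD40 and 18, 7 and 2 counts under saline. In WT they had 713, 1291 and 2030 counts (47.4, 67.8 and 100.0 CPM) under anti-CD40 and 3, 4 and 1 counts under saline. The WT anti-CD40 libraries stood far above all others, and each sph/sph anti-CD40 library lay above each sph/sph saline library. The means under anti-CD40 were 31.8-fold lower in sph/sph than in WT (log2 fold -5.00 ± 0.63). Anti-CD40 against saline gave 1.97 ± 0.65 in sph/sph and 8.79 ± 0.80 in WT, 459.7-fold between the WT means, and the interaction was -6.81 ± 1.01, not called without the 4 libraries lacking Y-linked counts (-6.08). T and NK cell markers summed to 4.36 to 69.5 CPM in sph/sph anti-CD40, 8.78 to 12.3 CPM in sph/sph saline, 111 to 966 CPM in WT anti-CD40 and 14.6 to 24.6 CPM in WT saline, but WT anti-CD40 B, the highest for these markers, was not the highest for Olr1. Monocyte markers summed to 539 to 2063 CPM in sph/sph anti-CD40 and 888 to 2443 CPM in WT anti-CD40, ranges that overlap, while Olr1 did not. The part of these cells in the Olr1 difference was not tested.

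The 3 fatty acid binding proteins changed places. Fabp7, known as the brain type and also made by Kupffer cells (chromosome 10, 57784881 to 57788450, plus strand), stood at 29.2, 32.3 and 45.0 CPM in the sph/sph anti-CD40 libraries A, B and C, and in sph/sph saline at 113, 111 and 126 CPM. It stood at 4.32, 0.525 and 0.985 CPM in WT anti-CD40 and at 368, 302 and 342 CPM in WT saline. No group overlapped another. The drop under anti-CD40 was 3.28-fold between the sph/sph means (log2 fold -1.71 ± 0.52) and 174-fold between the WT means (-7.47 ± 0.68), with an interaction of 5.76 ± 0.78. Sph/sph was thus 18.3-fold above WT under anti-CD40 (4.23 ± 0.60) and 2.89-fold below WT under saline (-1.53 ± 0.51). That saline difference, with no overlap, was not called in the fit of all libraries but was called without WT anti-CD40 A (-1.53), by limma-voom and in a fit of the saline groups alone.

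Fabp7 moved beside the Kupffer cell markers, yet not only in step with them. It had 1.85 to 2.80 CPM per 1000 CPM of their sum in sph/sph anti-CD40, 3.57 to 4.64 in sph/sph saline, 1.44 to 5.66 in WT anti-CD40 and 10.0 to 11.1 in WT saline. Under saline the marker sums of the genotypes overlapped while the Fabp7 ratios did not. All 10 Kupffer cell markers were called lower under anti-CD40 in WT and 9 of 10 higher in sph/sph than in WT under anti-CD40.

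Fabp5 and Fabp4 are neighbours on chromosome 3, Fabp5 at 10012548 to 10016607 on the plus strand and Fabp4 at 10204088 to 10208576 on the minus strand, 187480 bases apart. Between and beside them lie Pmp2, Fabp9 and Fabp12, which had at most 1 count in any library. Fabp5, the epidermal type, stood at 113, 66.1 and 89.4 CPM in sph/sph anti-CD40, 81.7, 86.4 and 60.8 CPM in sph/sph saline, 40.4, 50.1 and 58.0 CPM in WT anti-CD40 and 8.42, 16.5 and 15.0 CPM in WT saline. WT saline lay below all other libraries and all sph/sph libraries lay above all WT libraries. Its sph/sph mean was 1.81 times the WT mean under anti-CD40 (log2 fold 0.85 ± 0.28, not called; called by DESeq2 at 0.81, by limma-voom at 0.83, without WT saline A at 0.85 and without sph/sph anti-CD40 B at 1.03) and 5.74 times it under saline (2.52 ± 0.29). Anti-CD40 against saline gave 0.23 ± 0.27 in sph/sph and 1.89 ± 0.29 in WT, and the interaction was -1.67 ± 0.39. That interaction call was lost without WT saline A or C, sph/sph saline A or B, sph/sph anti-CD40 B or WT anti-CD40 B or C, at values of -1.76 to -1.42, and with a term for the A libraries (-1.66) or without them (-1.70). A processed pseudogene, Fabp5l2, may share reads with Fabp5, so the Fabp5 level is uncertain to that extent. The sequences of Fabp5 and Fabp5l2 were not compared.

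Fabp4, the adipocyte type that macrophages and capillary endothelium also make, varied widely between libraries of a group. Libraries A, B and C held 22.9, 56.7 and 163 CPM in sph/sph anti-CD40, 97.2, 120.3 and 21.9 CPM in sph/sph saline, 82.9, 228 and 331 CPM in WT anti-CD40 and 10.5, 28.5 and 20.6 CPM in WT saline. Only the 2 WT groups did not overlap, 10.8-fold apart (log2 fold 3.43 ± 0.87). Anti-CD40 against saline gave 0.02 ± 0.79 in sph/sph, and the interaction of -3.41 ± 1.15 was not called by edgeR but was called by DESeq2 (-3.46) and, without sph/sph anti-CD40 C, by edgeR (-4.42). Within each of the 4 groups the order of the 3 libraries by Fabp4 was that of the summed liver sinusoidal endothelial cell markers. Several pairs of gene and marker list were compared in this way, and no other pair matched in all 4 groups. Cd36 matched the same endothelial sum in 3 of 4 groups. The 10 endothelial markers summed to 1154, 1797 and 3183 CPM in sph/sph anti-CD40, 2896, 3296 and 1673 CPM in sph/sph saline, 3537, 4508 and 7948 CPM in WT anti-CD40 and 2744, 5095 and 4156 CPM in WT saline. Per 1000 CPM of these markers Fabp4 had 19.9 to 51.1 CPM in sph/sph anti-CD40, 13.1 to 36.5 CPM in sph/sph saline, 23.4 to 50.7 CPM in WT anti-CD40 and 3.84 to 5.60 CPM in WT saline. The WT groups therefore stayed apart when scaled by this sum, and WT saline lay below every other library. The mean sum was 5331 CPM in WT anti-CD40 and 3998 CPM in WT saline, but the median log2 fold of these markers was -0.23. Of the 10 markers 2 were called higher there, beside 19.4% of all genes, and 0 lower. The part of endothelial cells in the Fabp4 difference was not tested. Of 6 adipocyte markers 5 averaged under 1 CPM in every group: Lep had 0 counts in all 12, and Adipoq had 3 counts in all in each anti-CD40 group and 0 in each saline group. Summed, the 6 ran from 33.4 to 308 CPM in sph/sph anti-CD40 and from 117 to 547 CPM in sph/sph saline. In WT they ran from 29.2 to 56.6 CPM under anti-CD40 and from 152 to 295 CPM under saline. Most of each group's sum came from the remaining marker, so the sums describe mainly 1 gene and are no measure of fat cell content.

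**Figure D2:**
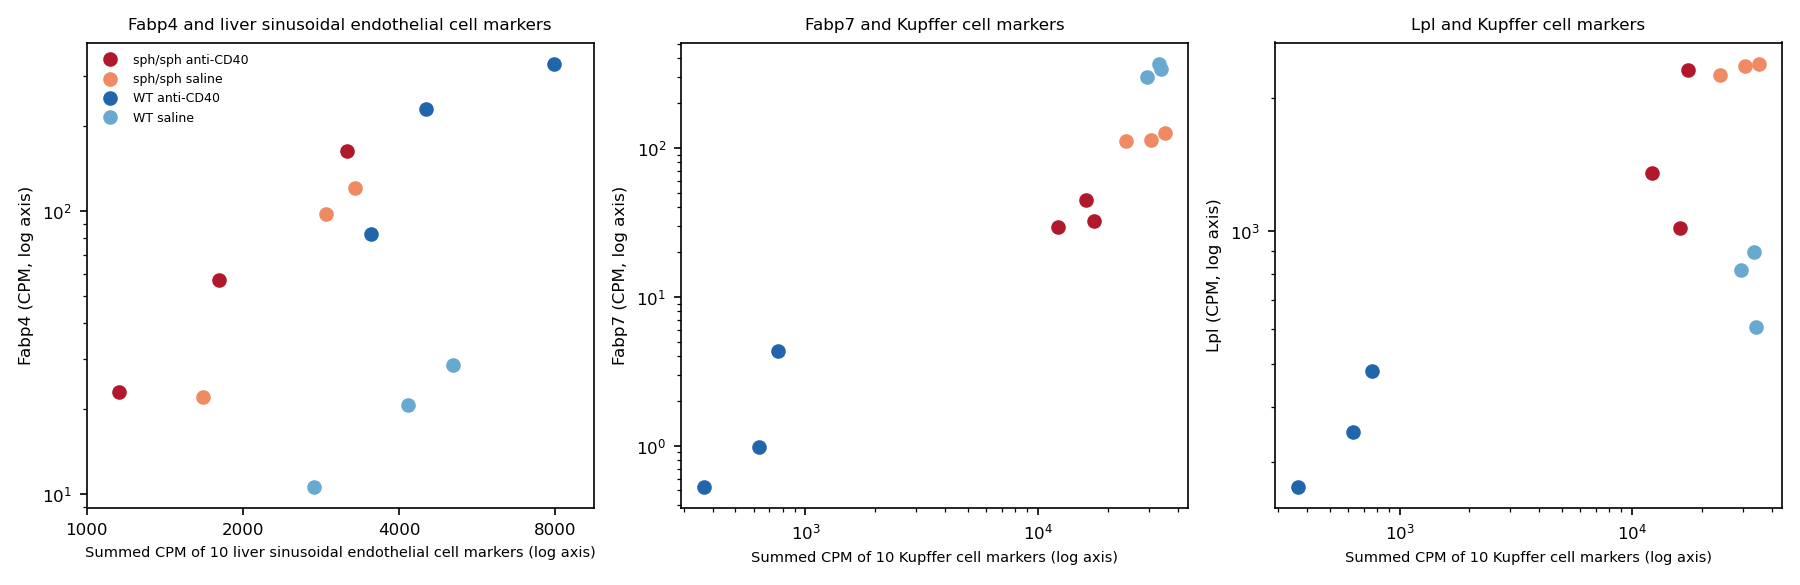
Level of a gene (CPM, log axis) against the summed CPM of 10 markers of a cell type (log axis), 1 point per library, coloured by group. Fabp4 follows the endothelial sum within each group with WT saline set lower, Fabp7 of sph/sph saline lies below WT saline at overlapping Kupffer cell sums, and Lpl is highest in sph/sph.

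The 3 carriers were added together per summed exon length, which was 4489 bases for Fabp4 (its whole gene span), 3567 for Fabp5 and 1250 for Fabp7. The sum and the shares below depend on these lengths, which weigh Fabp7 most per count. The carriers summed to 71.5 ± 22.4 CPM per kb in sph/sph anti-CD40, 132.5 ± 9.10 in sph/sph saline, 63.2 ± 28.9 in WT anti-CD40 and 278 ± 23.7 in WT saline (SD, n = 3). Fabp7 made up 37.0 to 45.3% of that sum in sph/sph anti-CD40, 63.6 to 82.1% in sph/sph saline, 0.642 to 10.4% in WT anti-CD40 and 95.7 to 98.4% in WT saline. Fabp4 held 55.5 to 81.2% in WT anti-CD40 and 0.784 to 2.52% in WT saline. Fabp5 held its largest shares, 25.8 to 52.6%, in sph/sph anti-CD40. In WT, anti-CD40 libraries held mostly Fabp4 and Fabp5 where saline libraries held mostly Fabp7, while every sph/sph library held all 3 at 3.98% or more.

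**Figure D3:**
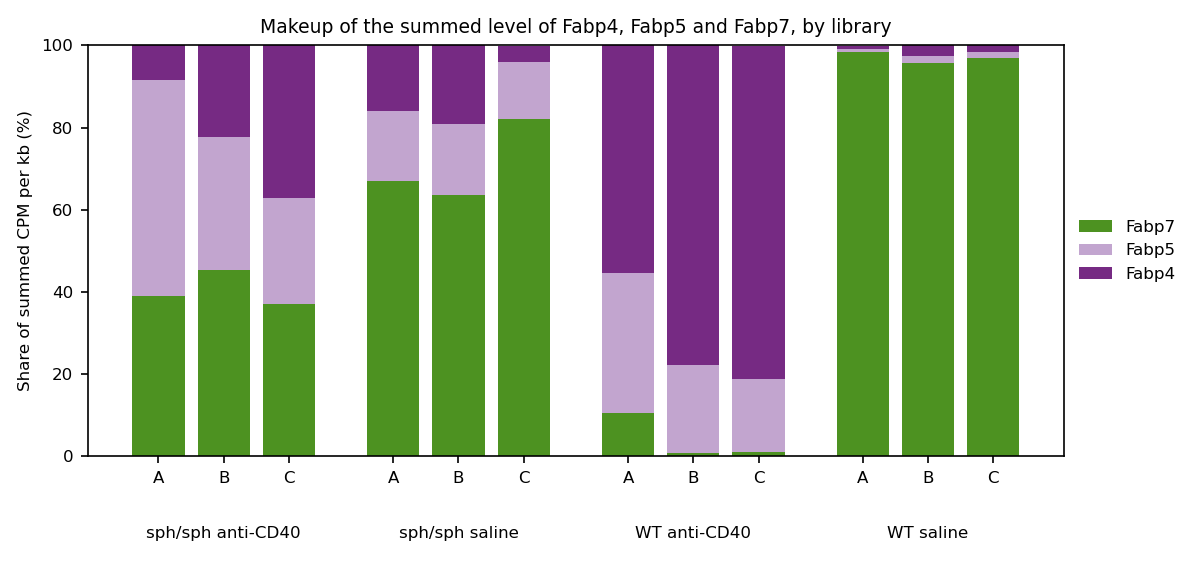
Shares of Fabp4, Fabp5 and Fabp7 in their summed CPM per kb (%, bars stacked to 100), 1 bar per library in the 4 groups. Fabp7 makes up 37.0 to 82.1% in the sph/sph libraries, at most 10.4% in WT anti-CD40 and at least 95.7% in WT saline. Shares depend on the summed exon length of each gene.

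Pparg, the nuclear receptor, followed genotype (chromosome 6, 115360951 to 115490399, plus strand). It stood at 22.8, 23.0 and 34.7 CPM in sph/sph anti-CD40 and 62.9, 49.2 and 58.0 CPM in sph/sph saline. In WT it stood at 6.52, 10.3 and 13.6 CPM under anti-CD40 and 14.7, 11.0 and 11.8 CPM under saline, groups that overlapped. All sph/sph libraries lay above all WT libraries, with log2 folds of 1.40 ± 0.27 under anti-CD40, not called in a fit of the 2 groups alone (1.35), and 2.18 ± 0.27 under saline. Anti-CD40 against saline gave -1.08 ± 0.26 in sph/sph, where the groups did not overlap, and -0.30 ± 0.26 in WT; the sph/sph value was called without sph/sph anti-CD40 C (-1.32) or WT anti-CD40 A (-1.08) and by DESeq2. Per 1000 CPM of Kupffer cell markers Pparg had 1.32 to 2.16 CPM in sph/sph anti-CD40, 1.65 to 2.05 CPM in sph/sph saline, 8.53 to 28.2 CPM in WT anti-CD40 and 0.346 to 0.439 CPM in WT saline. An antisense gene, Gm44079, overlaps Pparg, and since no source used here says how the counting treated strand, reads of the pair cannot be told apart.

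PPAR-gamma with RXR binds a direct repeat of AGGTCA with 1 base between, called DR1. Start-site windows of 300 bases, 250 before and 50 after, were matched in the RefSeq promoter table (GRCm38.p6) for 6 of the 10 genes, in 10 windows. The table held none for Lpl, Fabp4, Fabp5 and Slc27a6. On both strands and with up to 2 mismatches, DR1 lay in the windows of Plin2 and Cd36, against 3.86% of all 32851 windows. An exact AGGTCA on either strand lay in those of Plin2, where it is part of the DR1 match, Cd36, Fabp7, Olr1 and Pparg (2 of 3 windows), against 16.3% of all windows, and the 3 windows of Slc27a1 held neither. Windows of 4 genes are shown, the DR1 pair and the carrier and receptor that differed most between WT groups, each along the strand of its gene, with the matched letters in capitals. Plin2 lies at chr4:86670010-86670309 on the minus strand, Cd36 at chr5:17835847-17836146 on the minus strand, Fabp7 at chr10:57784673-57784972 on the plus strand and Olr1 at chr6:129507116-129507415 on the minus strand.
Plin2: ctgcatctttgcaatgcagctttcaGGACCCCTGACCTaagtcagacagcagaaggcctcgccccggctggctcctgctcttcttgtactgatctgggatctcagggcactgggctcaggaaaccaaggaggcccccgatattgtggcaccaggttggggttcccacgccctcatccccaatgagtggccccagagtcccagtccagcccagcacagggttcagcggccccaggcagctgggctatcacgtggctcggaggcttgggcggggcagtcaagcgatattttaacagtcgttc
Cd36: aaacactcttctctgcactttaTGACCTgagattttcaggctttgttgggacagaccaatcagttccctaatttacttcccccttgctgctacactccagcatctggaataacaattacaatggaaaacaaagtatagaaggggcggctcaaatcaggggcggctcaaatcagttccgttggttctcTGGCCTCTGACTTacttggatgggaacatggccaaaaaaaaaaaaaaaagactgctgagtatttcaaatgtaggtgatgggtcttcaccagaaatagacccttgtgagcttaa
Fabp7: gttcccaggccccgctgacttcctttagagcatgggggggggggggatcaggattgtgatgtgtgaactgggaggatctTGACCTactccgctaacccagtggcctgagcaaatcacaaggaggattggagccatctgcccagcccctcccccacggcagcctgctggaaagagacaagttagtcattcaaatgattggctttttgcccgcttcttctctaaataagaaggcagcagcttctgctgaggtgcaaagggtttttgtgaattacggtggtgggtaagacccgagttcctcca
Olr1: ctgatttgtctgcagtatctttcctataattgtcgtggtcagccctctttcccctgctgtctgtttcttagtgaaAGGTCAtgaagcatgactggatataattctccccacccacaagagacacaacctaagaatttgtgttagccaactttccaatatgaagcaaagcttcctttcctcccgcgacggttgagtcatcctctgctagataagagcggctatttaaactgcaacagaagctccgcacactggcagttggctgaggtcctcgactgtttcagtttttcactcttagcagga
In these lines the longer capital run of Cd36 (window bases 188 to 200) and that of Plin2 (26 to 38) are the DR1 matches, with 2 mismatches each, and the capital runs of 6 letters are exact copies. Both DR1 windows belong to genes that went unlike each other: Cd36 was lower under anti-CD40 in WT and Plin2 was not. A match is a stretch of letters and no evidence of binding.

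Plin2, the droplet coat (chromosome 4, 86648386 to 86670060, minus strand), was the steady member. Its libraries A, B and C held 379, 392 and 261 CPM in sph/sph anti-CD40, 364, 288 and 371 CPM in sph/sph saline, 515, 223 and 368 CPM in WT anti-CD40 and 372, 314 and 587 CPM in WT saline. All groups overlapped, and the highest group mean was 1.24 times the lowest. Log2 folds were -0.10 ± 0.32 for sph/sph against WT under anti-CD40, -0.31 ± 0.32 under saline, 0.01 ± 0.32 for anti-CD40 in sph/sph and -0.20 ± 0.32 in WT. Changes within about 2 standard errors of these values were not resolved.

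**Figure D4:**
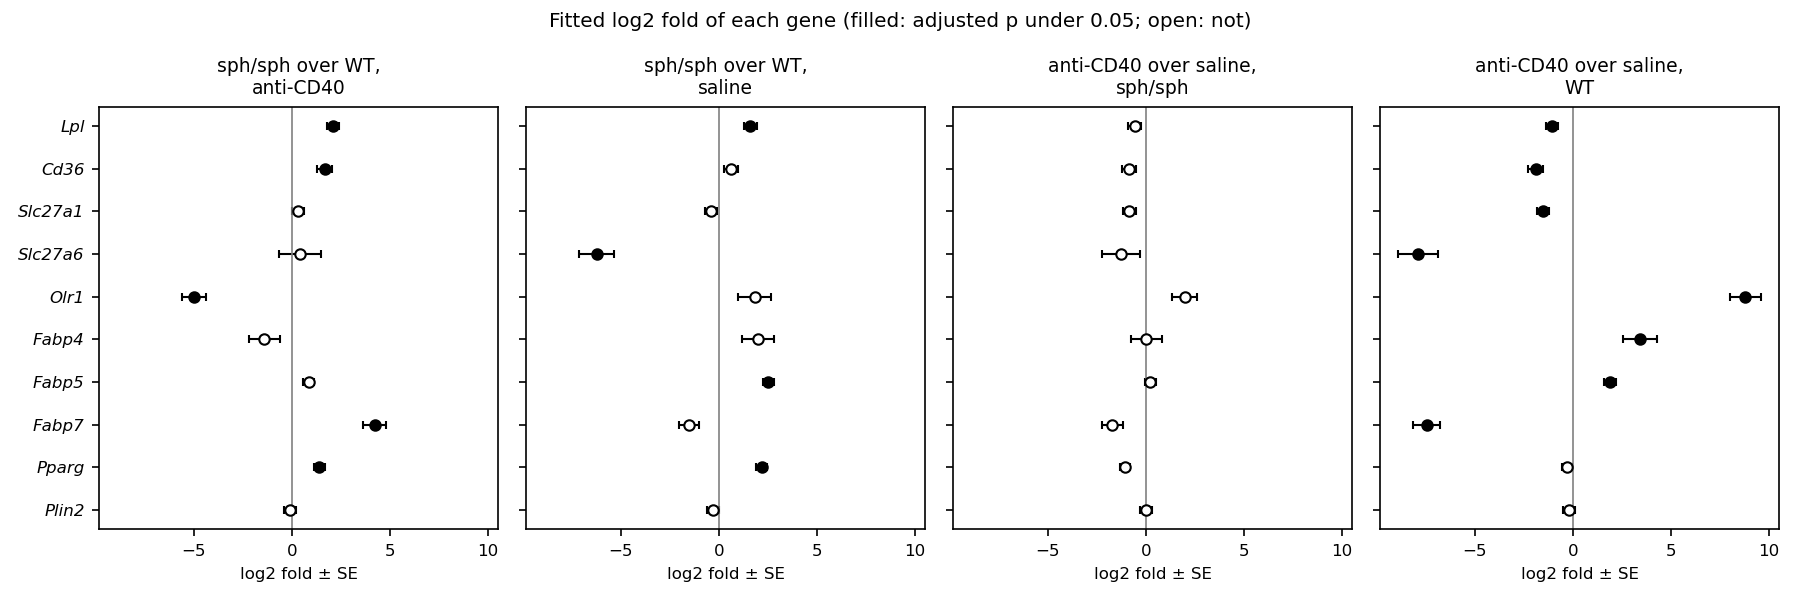
Log2 fold of each gene with its standard error (SE) from the edgeR fit of all 12 libraries, in 4 comparisons, with filled points for genes called and open points for the rest. Folds of Slc27a6, Olr1 and Fabp7 exceed 7 on the log2 scale in WT under anti-CD40, while the sph/sph response holds no filled point.

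The wider pathway was read from a list of 69 other genes of fatty acid uptake, lipolysis, ester synthesis, droplets, nuclear receptors and oxidation. The list was chosen with earlier results of these data known, so its counts, medians and adjusted p-values are a description. Of the 69 genes 61 were tested. In sph/sph, anti-CD40 went with 1 of them called lower and 0 higher, beside 0.780% of all genes. The 1 gene was Cebpa, at 72.0 ± 24.9 CPM in sph/sph anti-CD40 and 184 ± 12.3 CPM in sph/sph saline (log2 fold -1.35 ± 0.24, edgeR adjusted p = 0.0407). Its call was lost without any 1 library other than WT anti-CD40 A or B or sph/sph anti-CD40 C, at -1.39 to -1.20. DESeq2 called 9 lower and 1 higher, and 14 had an unadjusted edgeR p under 0.05. Without library C of sph/sph anti-CD40 edgeR called 14 lower and 2 higher, and without WT anti-CD40 A 2 lower.

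In WT, anti-CD40 went with 28 of the 61 lower and 2 higher, beside 39.2% of all tested genes called (19.7% lower and 19.4% higher). The median log2 fold was -0.63 against 0.05 over all genes. Acsl1, which activates fatty acids and rises in inflamed macrophages, averaged 254 ± 123 CPM in WT anti-CD40 and 47.4 ± 4.74 CPM in WT saline (SD, n = 3; log2 fold 2.42 ± 0.42, SE; edgeR adjusted p = 0.00176). Without WT saline B or C only 1 gene rose, and without WT anti-CD40 B or sph/sph anti-CD40 C 4 rose; without WT anti-CD40 B or C 17 or 18 fell.

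Of all tested genes 19.7% were called lower under anti-CD40 in WT. By role, 4 of 6 receptors, 5 of 8 nuclear receptors and co-regulators, 5 of 13 lipases and regulators, 4 of 8 transporters and synthetases, 3 of 7 ester synthesis genes, 3 of 7 droplet genes, 3 of 9 oxidation genes and 1 of 3 other binding proteins fell in WT. The steepest was Pnpla3, a droplet lipase also called adiponutrin (log2 fold -4.92 ± 0.33, edgeR adjusted p = 9.03e-06), which had 12 counts over WT anti-CD40 and 361 over WT saline. Rxra, the partner of PPAR-gamma, averaged 114 ± 24.4 CPM in WT anti-CD40 and 787.5 ± 49.3 CPM in WT saline (-2.79 ± 0.23, edgeR adjusted p = 2.5e-05). Cebpa, a transcription factor of macrophages, hepatocytes and fat cells (-2.89 ± 0.25, edgeR adjusted p = 3.78e-05), and the endocytic receptor Lrp1 (-2.80 ± 0.42, edgeR adjusted p = 0.000749) fell as steeply. Fabp1 (-3.77 ± 0.82, edgeR adjusted p = 0.00547), Plin5 (-3.70 ± 1.09), Slc27a2 (-2.82 ± 0.94) and Ppara (-2.66 ± 0.85), all abundant in hepatocytes, fell beside hepatocyte markers that summed to 830 to 2849 CPM in WT anti-CD40 and 3134 to 5518 CPM in WT saline. Edge cases were Plin5, Slc27a2 and Ppara (edgeR adjusted p = 0.0222, 0.0363 and 0.0314): the call of Slc27a2 (-3.08 to -2.57) was lost without any 1 of the 6 WT libraries, of Ppara (-2.90 to -2.46) without any but WT saline A, and of Plin5 (-3.40 to -3.33) without WT saline B or WT anti-CD40 B or C.

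**Figure D5:**
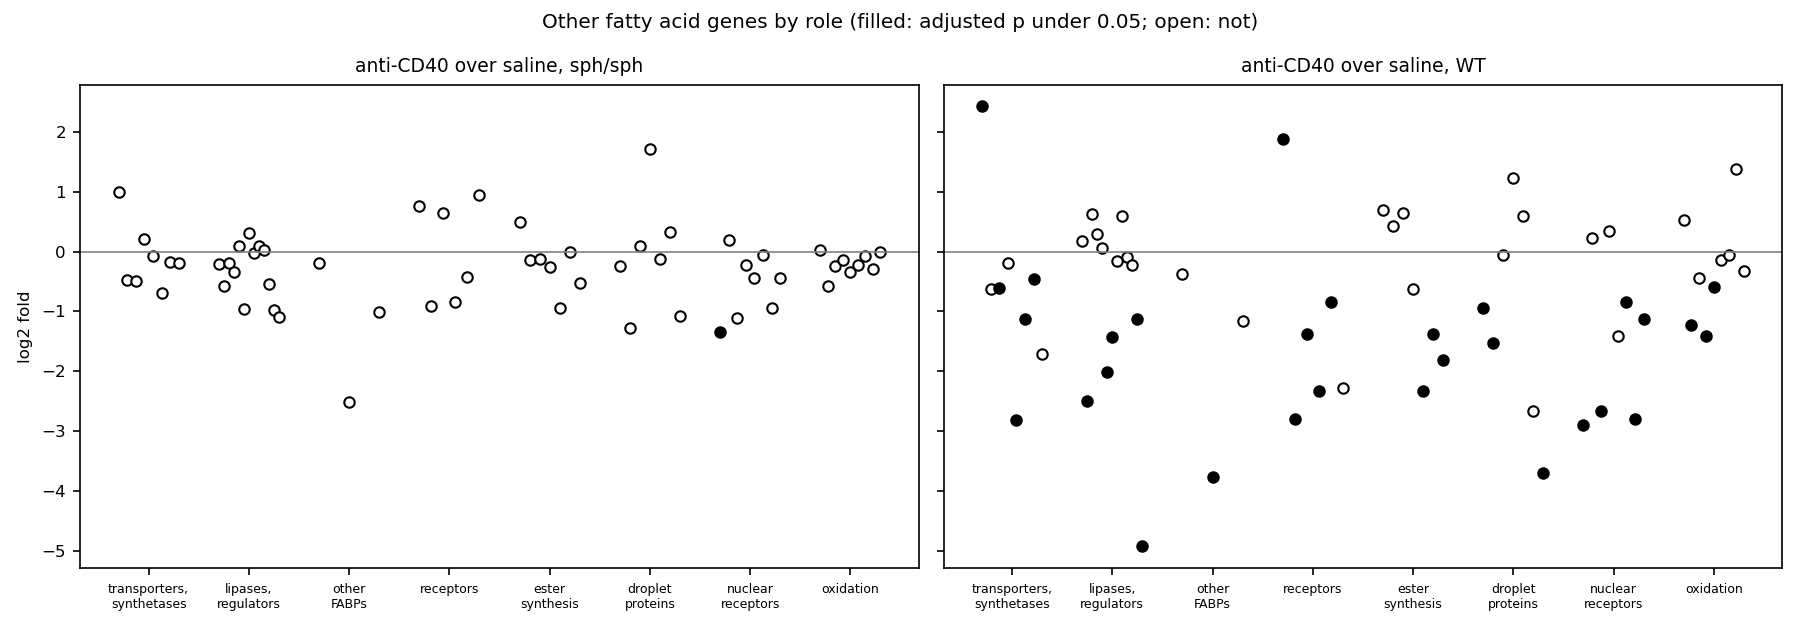
Log2 fold of the 61 other fatty acid genes tested, anti-CD40 over saline, in sph/sph (left) and WT (right), grouped by role along the horizontal axis, with filled points for genes called at an edgeR adjusted p under 0.05. Of these genes 1 is called in sph/sph, and 2 higher and 28 lower in WT.

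The difference of responses was called for 6 of the 61, all with a higher response in sph/sph than in WT, beside 4.30% of all genes. They were Pnpla3 (3.81 ± 0.42, edgeR adjusted p = 0.000869), Rxra (1.85 ± 0.30, edgeR adjusted p = 0.00847), Cebpa (1.54 ± 0.33, edgeR adjusted p = 0.0305), the lipoprotein receptor Scarb1 (1.48 ± 0.24, edgeR adjusted p = 0.00881), the phosphatidate phosphatase Lpin2 (1.36 ± 0.23, edgeR adjusted p = 0.00926) and Cpt1a, the gate of mitochondrial fatty acid oxidation (1.27 ± 0.29, edgeR adjusted p = 0.0383). Lpin2 averaged 126 ± 24.9 CPM in sph/sph anti-CD40, 127 ± 10.2 CPM in sph/sph saline, 48.0 ± 6.07 CPM in WT anti-CD40 and 124 ± 9.80 CPM in WT saline. The call of Cebpa was lost without any 1 of the 6 saline libraries or WT anti-CD40 B or C (1.40 to 1.60). That of Cpt1a was lost without any of the same libraries or sph/sph anti-CD40 B (1.09 to 1.38). Without the 4 libraries lacking Y-linked counts, the calls of Rxra (2.11), Cebpa (1.92), Cpt1a (1.57), Scarb1 (1.51) and Lpin2 (1.43) were lost. Of the 6 only Pnpla3 kept its call there. Kupffer cell markers moved alongside, with 8 of 10 called higher in the interaction, and their part in these 6 was not tested.

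Under anti-CD40, 21 of the 61 were higher in sph/sph than in WT and 1 was lower, beside 17.7% of all genes (11.5% higher and 6.19% lower), with a median log2 fold of 0.55 against 0.08 over all genes. Among them were 5 of 9 oxidation genes (Acadm, Cpt1a, Cpt2, Hadha and Hadhb, at 0.46 to 0.81), 4 of 6 receptors, 4 of 13 lipases and regulators and 3 of 7 ester synthesis genes. Pnpla3 (3.73 ± 0.33, edgeR adjusted p = 8.82e-05), Scarb1 (2.02 ± 0.18, edgeR adjusted p = 8.82e-05), Lpin1, which makes diacylglycerol (2.31 ± 0.45, edgeR adjusted p = 0.00654), Lrp1 (2.00 ± 0.41, edgeR adjusted p = 0.00873) and Rxra (1.81 ± 0.22, edgeR adjusted p = 0.000514) were higher. Vldlr, a lipoprotein receptor, had 108 counts over sph/sph anti-CD40 and 2 over WT anti-CD40, a ratio of 63.1 with a counting interval of 17.1 to 528 (exact, 95%). That interval covers counting error in the pooled counts and not the spread between mice. The fitted log2 fold of Vldlr was 5.74 ± 1.54 (edgeR adjusted p = 0.0288). Plin4, a droplet coat, had 125 counts against 4, with 104 of the 125 in 1 library (4.86 ± 1.19, edgeR adjusted p = 0.0191). The calls of Plin4 (4.65 and 4.62) were lost without WT anti-CD40 B or C, and that of Vldlr without any 1 WT anti-CD40 library or sph/sph anti-CD40 B. Acsl1 was the lower gene (-1.39 ± 0.41, edgeR adjusted p = 0.0405). Without WT anti-CD40 B or C 11 or 9 genes were higher, and a fit of the 2 groups alone called 7 higher and 0 lower; the lower count was 0 or 2 without any 1 library other than WT anti-CD40 C.

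Under saline 0 of the 61 were called between genotypes, beside 2.04% of all genes. Here 14 had an unadjusted edgeR p under 0.05, DESeq2 called 6 higher, and without sph/sph anti-CD40 C edgeR called 5 higher. By median the list lay at a log2 fold of 0.10 against 0.01 over all genes.

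Genes with a course most like those of the 3 widest-ranging members were sought among all tested genes, by the root mean square distance of centred log2 CPM over the 12 libraries. Nearest to Olr1 were Ch25h, which makes 25-hydroxycholesterol (0.80), Upp1, a uridine phosphorylase (0.90), and Ifng, the cytokine interferon-gamma (0.98), against a median distance of 3.16 over all genes. Ch25h averaged 2.25 CPM in sph/sph anti-CD40, 0.483 CPM in sph/sph saline, 236 CPM in WT anti-CD40 and 0.208 CPM in WT saline. Nearest to Fabp7 were Adamdec1, a secreted metalloprotease (0.51), Rims4 (0.60) and Abca9, a lipid transporter of the ABC family (0.67), against a median of 3.04. Adamdec1 averaged 45.0, 98.6, 1.94 and 386 CPM in sph/sph anti-CD40, sph/sph saline, WT anti-CD40 and WT saline. Nearest to Slc27a6 were the C-type lectin genes Cd209f (1.17) and Cd209g (1.28), close paralogs whose reads may be split between them, and Asb10 (1.34), against a median of 3.17. Cd209f averaged 0.542, 2.37, 0.0222 and 32.4 CPM in the same order of groups. All 12 libraries, with their depth and cell makeup, are shared by these distances.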

How the data were processed

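The deposited file holds raw counts of reads for each gene, in whole numbers that the authors had not scaled as far as the values show. STAR 2.7.0e, SAMtools 1.9, featureCounts and GRCm38.p5 are named in the submitters' processing notes. Not given in the sources used here were the gene models counted, the handling of strand and that of multiply mapped reads. The strand-marking kit is named in the labels' protocols. Of 25700 identifiers 25587 matched a symbol.

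edgeR 4.0.16 in R 4.3.3 was fitted to all 12 libraries, with filterByExpr by group (13844 genes kept), TMM scaling, a mean per group, robust quasi-likelihood F tests and Benjamini-Hochberg adjustment over all genes tested. The threshold for a call was an adjusted p of 0.05, and the common biological coefficient of variation came to 0.382. Standard errors (SE) were approximated from the F statistic, as the absolute log2 fold over its square root. CPM are counts scaled to a common total with TMM factors, with the SD over libraries, and CPM per kb divide them by the summed exon length in GENCODE M21 (GRCm38, coordinates from 1). The edgeR, limma-voom and DESeq2 fits were tried on simulated counts for sph/sph against WT under saline only, with the same spread for every gene. The other comparisons were not simulated. Alternatives were DESeq2 1.42.0, limma-voom (limma 3.58.1), RLE factors, no low-count filter, no robust option, the groups compared alone and each library left out. A term for library A, and leaving out the 4 A libraries, were chosen after seeing the data.

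The members and lists were chosen with earlier results of these data known. Named were all 10 members and, of the other pathway genes called in a comparison, up to 8 by size of log2 fold and any that a role's count rests on. Depth limits the low genes, and counting intervals cover counting error only. The series' design text counts 3 mice per group, so libraries are taken as separate animals. Comparisons that share a group of libraries are not independent. Results of a few genes are not reported here.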

Additional observations from a re-analysis of the deposited data

Results flagged for a closer look

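The response to anti-CD40 differed between sph/sph and WT, by the edgeR interaction term, for 4 of the 10 genes and 6 of 61 other pathway genes, beside 4.30% of all tested genes. Values are log2 folds of the sph/sph response minus the WT response. The pathway list was chosen with earlier results known, and the 4 genes with this comparison known. They were Fabp7 at 5.76, Slc27a6 at 6.65, Fabp5 at -1.67 and Olr1 at -6.81. The others were Pnpla3 at 3.81, Rxra at 1.85, Cebpa at 1.54, Scarb1 at 1.48, Lpin2 at 1.36 and Cpt1a at 1.27. Markers of Kupffer cells stood at 12144 to 17482 CPM in sph/sph anti-CD40, 24003 to 35176 CPM in sph/sph saline, 365 to 764 CPM in WT anti-CD40 and 29560 to 34009 CPM in WT saline, and their part in these differences was not tested.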

How the results depend on the processing

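Of 1440 log2 folds recomputed for the genes named, 105 lost the call, 20 gained it and 1315 stayed on their side of the threshold. No fold that was called changed sign; of those not called 25 did, at 2 decimals, 21 by no more than 1 SE (of Plin2, Fabp4 and Slc27a6) and 4 by more (of Pparg, Fabp4, Slc27a6 and Slc27a1). Counts called with all libraries stand in brackets. Leaving out the 4 libraries without Y-linked counts together gave, for members, 0 higher (3) and 0 lower (1) between genotypes under saline and 1 higher (2) and 0 lower (2) in the interaction. For other pathway genes it gave 0 lower in the sph/sph response (1), 1 higher in the WT response (2), 11 higher (21) and 0 lower (1) for genotype under anti-CD40 and 2 higher in the interaction (6). A term for those libraries gave 1 member lower in the interaction and 0 pathway genes lower in the sph/sph response and for genotype under anti-CD40. DESeq2 gave 1 member higher (0) and 2 lower (0) and 1 pathway gene higher (0) and 9 lower (1) in the sph/sph response, and, of pathway genes, 4 higher in the WT response, 2 lower for genotype under anti-CD40, 6 higher under saline (0) and 10 higher in the interaction. Limma-voom gave 1 member lower in the sph/sph response, 2 lower (1) for genotype under saline and 1 higher in the interaction. A fit of the compared groups alone gave 0 pathway genes lower in the sph/sph response, 4 higher in the WT response, 2 members higher (4) with 7 pathway genes higher and 0 lower for genotype under anti-CD40, and 2 members lower with 6 pathway genes higher and 1 lower (0) under saline. The cause was not tested. Leaving out 1 library each gave, for members higher and lower, 0 to 1 and 0 to 4 in the sph/sph response, 3 to 3 and 4 to 5 in the WT response, 3 to 5 and 1 to 1 for genotype under anti-CD40, 2 to 3 and 1 to 2 under saline and 1 to 2 and 1 to 3 in the interaction. For other pathway genes, in the same order of comparisons, it gave 0 to 2 and 0 to 14, 1 to 4 and 17 to 31, 9 to 24 and 0 to 2, 0 to 5 and 0 to 0, and 4 to 9 and 0 to 0. No paired analysis was possible because the columns carry no replicate numbers. Within a treatment the genotypes share numbers in column names for library A alone. Depth limited Slc27a6 outside WT saline and Olr1 under saline, where libraries held at most 21 and 18 counts.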
